A study of Sus scrofa with 16 samples.

Results

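The 9 genes described here encode 6 matrix metalloproteinases (MMP1, MMP2, MMP3, MMP9, MMP14 and MMP19) and 3 tissue inhibitors of metalloproteinases (TIMP1, TIMP2 and TIMP3). They were taken by symbol, and all 9 are among the 29552 named genes of the count table. Of these, 8 had enough reads to be among the 14530 genes tested, and MMP9 did not. The study cultured interstitial cells of the aortic valve, which are the fibroblasts within its leaflets, isolated from pigs of either sex aged 5 to 6 months. Cells were kept for 48 hours in Media 199 with 1% fetal bovine serum and antibiotics, either on stiff tissue culture plastic or on soft PEG-norbornene hydrogel of about 5.8 kPa. The groups were female cells on plastic, female cells on gel, male cells on plastic and male cells on gel, with 4 libraries of polyA RNA each. The labels call cells on plastic myofibroblasts and cells on gel quiescent fibroblasts. The labels speak of biological replicates and do not say whether a replicate is 1 animal or a pool. They do not say either whether equal numbers on both surfaces mark the same animal, and no freshly isolated tissue was analysed here.

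Metalloproteinases are zinc enzymes that are made as inactive precursors and cut the proteins of the extracellular matrix. MMP1 is a collagenase that opens fibrillar collagen, MMP3 (stromelysin) cuts many matrix proteins and activates other precursors, and MMP2 and MMP9 are gelatinases that degrade denatured collagen. MMP14 is anchored in the cell membrane and activates the MMP2 precursor in a complex that also holds TIMP2, so that TIMP2 takes part in activation as well as in inhibition. TIMPs block the active enzymes by binding their catalytic site, and TIMP3 is itself bound to the matrix and also blocks ADAM and ADAMTS proteases. In heart valves these enzymes take part in the turnover of the leaflet matrix. RNA levels say nothing of precursor activation, secretion or enzyme activity.

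Each library held between 16.93 and 27.48 M (mega) counts, fewest in male gel 2. Levels are counts per M (CPM) scaled by TMM, a factor that corrects for library composition. A gene is called where the quasi-likelihood F test of edgeR gives a p under 0.05 after Benjamini-Hochberg adjustment over the 14530 genes. Changes are log2 of plastic over gel, with the standard error (SE). The median change of all tested genes was -0.04 in female and -0.03 in male cells. All 10 fibroblast markers were present in every library. VIM (vimentin) had 4829 to 8174 CPM and COL1A1 (a chain of type I collagen) 8826 to 17518 CPM. Of the 10 markers, 2 rose and 4 fell on plastic in female cells, where 23.9% of all tested genes were called. In male cells 4 rose and 3 fell, where 25.8% were called. ACTA2 averaged 18200 CPM on plastic and 4020 CPM on gel in female cells, and 19900 and 3990 CPM in male cells. PDGFRA averaged 285 CPM on plastic and 1490 CPM on gel in female cells, and 303 and 1650 CPM in male cells. Endothelial markers were also present: CDH5, the junction protein VE-cadherin, had 4.97 to 174 CPM, PECAM1 21.5 to 124 CPM and VWF 0.135 to 4.17 CPM. Of 23 leukocyte and macrophage markers 5 passed the filter on low counts, and the sum over all 23 was 10.3 to 39.8 CPM in female plastic, 12.7 to 14.9 in female gel, 9.58 to 19.4 in male plastic and 6.21 to 13.8 in male gel. In both sexes 1 of them rose on plastic (LAPTM5, 0.565 to 33.7 CPM) and 1 fell (CD14, 3.16 to 11.3 CPM). PTPRC (CD45) had 1 read in all, and CD163 and MPO had 0. Female 1, female 4 and male 4 lay apart from the other replicates of their sex on both surfaces, on the second principal component of the 500 most variable genes, which held 16.3% of the variance. In bulk RNA, fewer cells of a type and less RNA per cell cannot be told apart.

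MMP2 (gelatinase A; chromosome 6, 30059247 to 30087031, Sscrofa11.1) was lower on plastic in both sexes. In female cells it had 724, 1012, 899.7 and 769 CPM on plastic, against 1180.0, 1923, 1568 and 1460.2 CPM on gel. In male cells it had 915, 1029, 918 and 680.1 CPM on plastic, against 1931, 1453, 1594 and 1447 CPM on gel. Every plastic library lay below every gel library. The log2 change was -0.85 (SE 0.16, adjusted p = 0.00104) in female and -0.86 (SE 0.16, adjusted p = 0.000908) in male cells by edgeR's test, so that MMP2 RNA on plastic was 0.555 times that on gel in female and 0.551 times in male cells.

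MMP14 (the membrane-bound activator of MMP2; chromosome 7, 76174502 to 76185931) fell as well. Female cells had 684, 593, 555 and 684 CPM on plastic, against 930.3, 888, 731 and 828 CPM on gel. Male cells had 580.4, 618, 635 and 615 CPM on plastic, against 771, 851, 795 and 874 CPM on gel. The groups did not overlap in either sex. The change was -0.43 (SE 0.10, adjusted p = 0.00378) in female and -0.43 (SE 0.10, adjusted p = 0.00356) in male cells. MMP14 varied little between replicates, with a coefficient of variation of 3.75 to 10.4% over the 4 groups.

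MMP19 (chromosome 5, 21279514 to 21285943), a secreted metalloproteinase that cuts basement membrane proteins, had the largest called change of the members. Female cells had 30.4, 23.0, 25.0 and 23.4 CPM on plastic, against 62.0, 55.8, 53.5 and 71.2 CPM on gel. Male cells had 27.6, 26.2, 23.1 and 27.1 CPM on plastic, against 47.6, 47.7, 60.9 and 73.1 CPM on gel. The gap between the highest plastic and the lowest gel library was wide in both sexes, with 23.0 to 30.4 CPM over the 8 plastic and 47.6 to 73.1 CPM over the 8 gel libraries. The change was -1.25 (SE 0.14, adjusted p = 1.16e-05) in female and -1.14 (SE 0.14, adjusted p = 2.57e-05) in male cells.

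**Figure D1:**
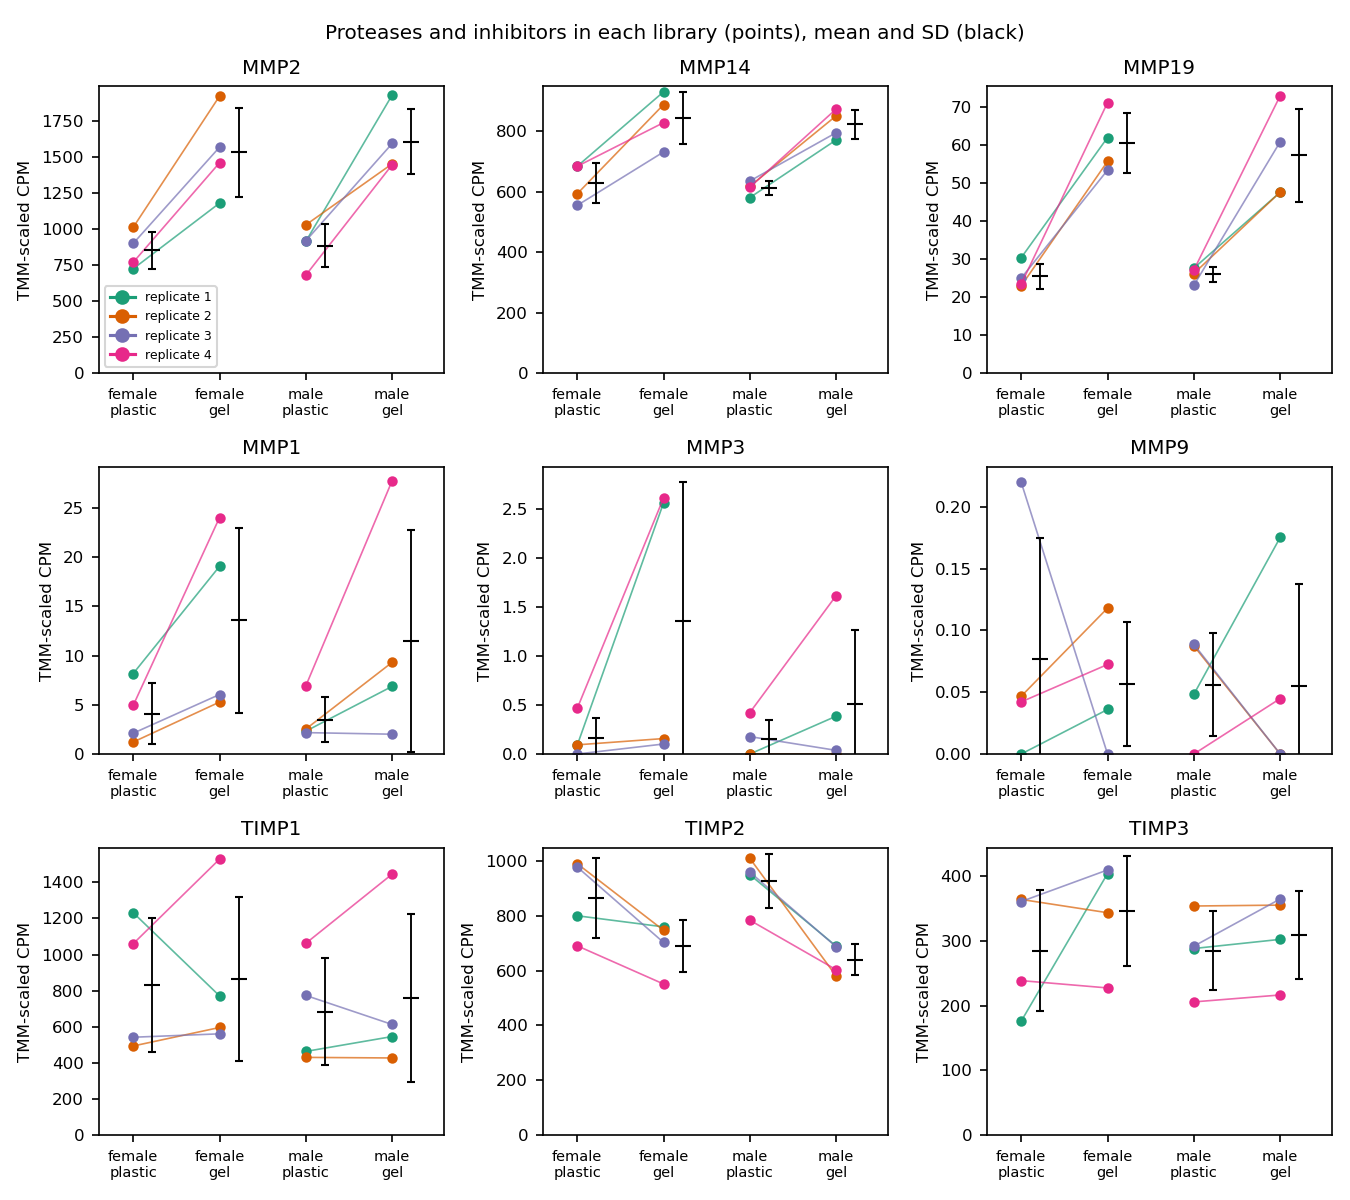
TMM-scaled CPM of the 9 genes (y axis, linear from 0) in the 4 groups (x axis), with lines joining the plastic and gel library of the same replicate number and black marks for mean ± SD (n = 4 each), whose lower ends are cut off at 0 where the SD exceeds the mean. MMP2, MMP14 and MMP19 are lower in every plastic library than in any gel library of the same sex, while MMP1, MMP3 and TIMP1 overlap between surfaces in both sexes.

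MMP1 and MMP3 lie next to each other in the metalloproteinase cluster of chromosome 9 (MMP1 at 33411738 to 33420205, MMP3 at 33446969 to 33453995). MMP1, the interstitial collagenase, had 8.17, 1.22, 2.11 and 4.94 CPM in female cells on plastic, against 19.1, 5.28, 6.04 and 24.0 CPM on gel. Male cells had 2.32, 2.54, 2.17 and 6.93 CPM on plastic, against 6.87, 9.32, 2.01 and 27.8 CPM on gel. The groups overlapped in both sexes. Female 1, female 4 and male 4 were the highest replicates of their sex on both surfaces, and male gel 3 was the lowest male library. The change, -1.72 (SE 0.73, adjusted p = 0.0985) in female and -1.71 (SE 0.73, adjusted p = 0.0989) in male cells, was not called. Within replicate numbers, MMP1 was lower on plastic in 4 of 4 female pairs (log2 difference -2.28 to -1.22) and in 3 of 4 male pairs (-2.0 to 0.11), male 3 being the exception. The labels do not say that equal numbers mark the same animal, and the pairing rests on correlations in the data. With the replicate number as a block, the edgeR change was -1.76 with adjusted p = 0.000916 in female and -1.43 with adjusted p = 0.00418 in male cells. MMP1 was also called in male cells without male gel 3 (-2.06, adjusted p = 0.041).

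MMP3 was scarce, with 227 reads over the 16 libraries. It had 2, 2, 0 and 11 reads in female cells on plastic, against 71, 4, 3 and 72 reads on gel. Male cells had 0, 0, 4 and 10 reads on plastic, against 11, 0, 1 and 36 reads on gel. The high values were those of female gel 1, female gel 4 and male gel 4, the replicates in which MMP1 was highest. MMP3 passed the filter on low counts through them together with male gel 1 and female plastic 4 (11 reads each). The change was -3.01 (SE 1.3, adjusted p = 0.108) in female and -1.70 (SE 1.36, adjusted p = 0.39) in male cells, neither called. RefSeq lists MMP10 as a synonym of this MMP3 entry, and whether its reads include those of a close relative was not tested.

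MMP9, gelatinase B (chromosome 17, 48179690 to 48186782), was close to absent. Female cells had 0, 1, 5 and 1 reads on plastic, against 1, 3, 0 and 2 on gel. Male cells had 1, 2, 2 and 0 reads on plastic, against 5, 0, 0 and 1 on gel. It did not pass the filter, and a difference between surfaces was not detectable at this depth.

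Of the inhibitors, TIMP2 moved in male cells in the direction opposite to MMP2 and MMP14. TIMP2 (chromosome 12, 3254794 to 3300835) had 951, 1010.3, 960.3 and 785 CPM in male cells on plastic, against 689.7, 581, 687 and 604 CPM on gel. All 4 male plastic libraries were above all 4 male gel libraries, and TIMP2 rose by 0.53 (SE 0.13, adjusted p = 0.00739). In female cells it had 801, 991, 979 and 691 CPM on plastic, against 760.2, 748, 703 and 552 CPM on gel, with female plastic 4 inside the range of gel. The female change, 0.33 (SE 0.13, adjusted p = 0.0878), was not called. The surface changes of the sexes were not shown to differ: female minus male was -0.21 (95% interval -0.60 to 0.19, adjusted p = 0.778). Female TIMP2 was called by DESeq2 (adjusted p = 0.0465), with the replicate number as a block (0.32, adjusted p = 0.0309), without female plastic 4 (adjusted p = 0.0311) and without the 6 libraries of female 1, female 4 and male 4 (0.0284).

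TIMP1 (X chromosome, 42103251 to 42106289), an inhibitor that many cytokines induce, had 1232, 493, 542 and 1059.8 CPM in female cells on plastic, against 771, 596, 561 and 1529 CPM on gel. Male cells had 463, 430.2, 773 and 1062 CPM on plastic, against 546, 427, 612 and 1446 CPM on gel. The surfaces overlapped, and the spread lay between replicates: female 4 and male 4 had at least 1059.8 CPM on both surfaces, and female plastic 1 was as high. The change was -0.05 (95% interval -0.96 to 0.85, adjusted p = 0.946) in female and -0.15 (95% interval -1.06 to 0.76, adjusted p = 0.836) in male cells. TIMP1 lies within the span of SYN1, and where strand is not used, reads in an overlap may be left out or given to the other gene. SYN1 averaged 6.42 to 9.81 CPM over the groups, far under TIMP1, which does not show whether reads of TIMP1 were left out. CEP295NL (0.181 to 0.274 CPM) lies within the span of TIMP2, and TIMP3 lies within the span of SYN3 (0 to 0.0215 CPM).

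TIMP3 (chromosome 5, 12185816 to 12242599), the matrix-bound inhibitor, had 176, 364, 361 and 239 CPM in female cells on plastic, against 404, 344, 409.8 and 227 CPM on gel. Male cells had 288, 354, 292 and 206 CPM on plastic, against 302, 355, 365 and 216 CPM on gel. Male 4 and female 4, in which TIMP1 was high, had the lowest TIMP3 of their group, apart from female plastic 1, which was lower still at 176 CPM. The surface changes, -0.28 (95% interval -0.80 to 0.24, adjusted p = 0.443) in female and -0.12 (95% interval -0.64 to 0.40, adjusted p = 0.761) in male cells, were not called.

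**Figure D2:**
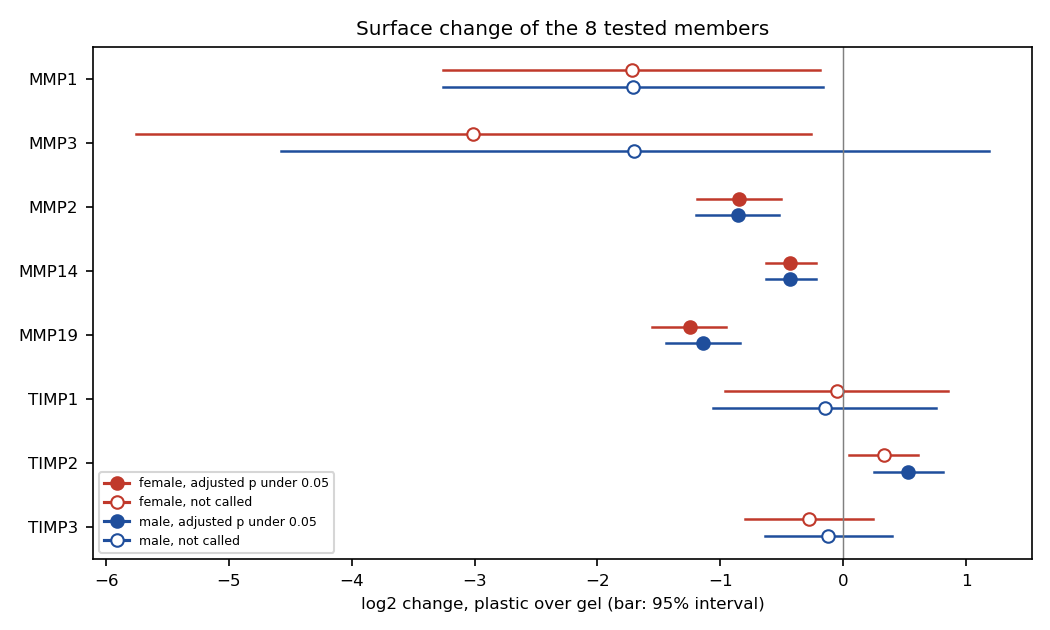
Log2 change of plastic over gel (x axis) with its 95% interval for the 8 tested genes (y axis), female above male, filled where the adjusted p is under 0.05. MMP2, MMP14 and MMP19 are called lower in both sexes and TIMP2 is called higher in male cells; the intervals of MMP1 and MMP3 are wide and those of TIMP1 and TIMP3 include 0.

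Counted over the 8 tested members, 3 fell and 0 rose in female cells, where 23.9% of all tested genes were called (11.3% lower and 12.7% higher). In male cells 3 fell and 1 rose, where 25.8% of all tested genes were called (12.9% lower and 12.9% higher). The median change of the tested members was -0.64 in both sexes, beside -0.04 in female and -0.03 in male cells over all tested genes. The members' median counts MMP3, which passed the filter mostly through gel libraries, where it was highest, so it is not read as a result. The groups did not overlap for 3 members in female cells, against 27.7% of all tested genes, and for 4 members in male cells, against 28.9%. All 3 genes that fell were proteases. With the replicate number as a block, 6 members were called in female cells, where 27.6% of all tested genes were. The 3 added calls were MMP1 and MMP3 (lower) and TIMP2 (higher). Nothing is read from the call of MMP3 (adjusted p = 0.0226), which passed the filter only through a few libraries, mostly on gel, where it was highest. In male cells 5 members were called under the block, MMP1 (lower) in addition, where 29.7% of all tested genes were.

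The balance between a protease and its inhibitor within a library needs no scaling between libraries. It was taken as the ratio of their read counts, with 0.5 added to each. This is not a molar ratio, because transcripts differ in length, so only the shift between surfaces is read. For each TIMP2 read there were 0.904, 1.02, 0.919 and 1.11 MMP2 reads in female cells on plastic, against 1.55, 2.57, 2.23 and 2.65 on gel. In male cells there were 0.962, 1.02, 0.956 and 0.867 on plastic, against 2.80, 2.50, 2.32 and 2.40 on gel. The ranges were separate in both sexes, and the log2 ratio differed by -1.16 in female and -1.40 in male cells. For MMP14, each TIMP2 read came with 0.854, 0.598, 0.566 and 0.990 reads in female cells on plastic, against 1.22, 1.19, 1.04 and 1.5 on gel. Male cells had 0.611, 0.611, 0.662 and 0.784 on plastic, against 1.12, 1.47, 1.16 and 1.45 on gel. Again the ranges did not overlap, with log2 differences of -0.75 in female and -0.96 in male cells.

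The MMP1 to TIMP1 log2 ratio averaged -7.90 ± 0.58 on plastic and -6.17 ± 0.65 on gel in female cells (SD, n = 4 each), without overlap. In male cells it averaged -7.68 ± 0.54 on plastic and -6.44 ± 1.24 on gel (SD, n = 4 each), with overlap. Ratios of MMP3 and MMP9 to TIMP1 rest on few reads and overlapped in both sexes, with log2 differences between -2.46 (MMP3, female) and 0.44 (MMP9, male). By replicate number, MMP1 to TIMP1 in both sexes and MMP3 to TIMP1 in female cells were lower on plastic in 4 of 4 pairs, although the groups overlapped for MMP1 in male and for MMP3 in female cells. By exact two-sided permutation tests over 70 assignments, the 5 ratios without overlap each gave p = 0.0286, the smallest this design allows, and adjusted p = 0.0571 over the 10 tests. None of the 10 ratios therefore passed 0.05 after adjustment.

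**Figure D3:**
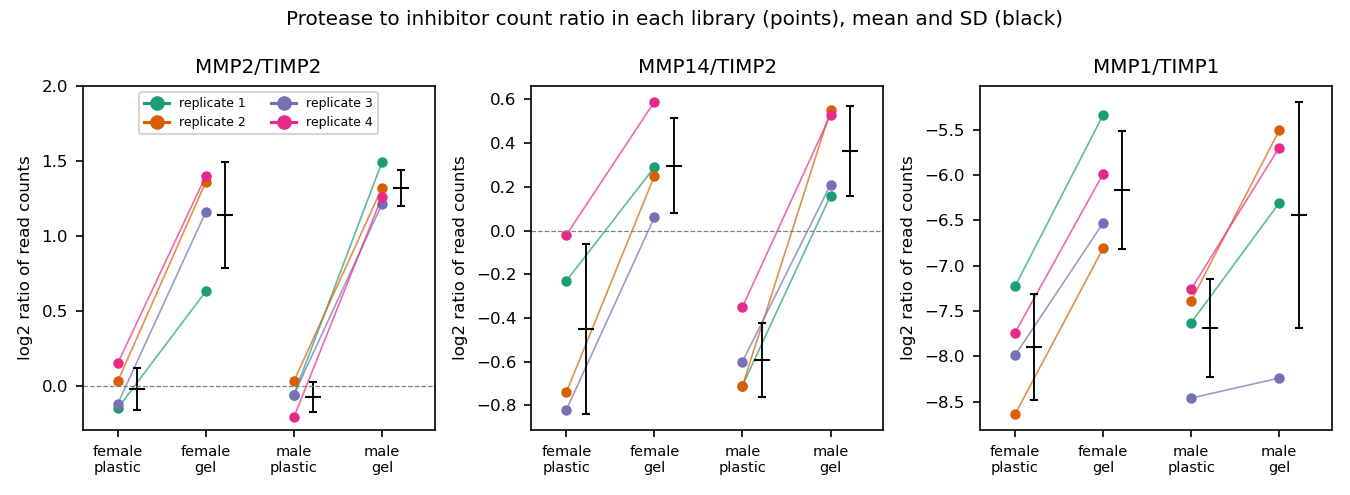
Log2 ratio of protease to inhibitor read counts (y axis) in each library by group (x axis), joined by replicate number, with mean ± SD (n = 4 each) in black and a dashed line at equal counts for the TIMP2 ratios. MMP2 to TIMP2 and MMP14 to TIMP2 are lower in all plastic than in all gel libraries of each sex; MMP1 to TIMP1 is so in female cells, and in male cells it overlaps through male 3 while each line still runs lower on plastic.

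None of the 8 tested members was called between female and male cells, on plastic (where 0.124% of all tested genes were called) or on gel (0.103%). At an unadjusted p under 0.05 the count of members was also 0 on plastic, where 1.95% of all genes passed, and on gel, where 3.85% did. DESeq2 and limma-voom called 0 as well. On plastic, female minus male was -0.06 for MMP2 (95% interval -0.40 to 0.28), 0.04 for MMP14 (-0.16 to 0.24), -0.03 for MMP19 (-0.34 to 0.27) and -0.10 for TIMP2 (-0.38 to 0.18). On gel it was -0.07 for MMP2 (-0.41 to 0.27), 0.04 for MMP14 (-0.16 to 0.24), 0.08 for MMP19 (-0.22 to 0.38) and 0.11 for TIMP2 (-0.17 to 0.39). For these 4 genes the intervals leave out a 2-fold difference in either direction. The X-linked TIMP1, which in humans can be expressed from the inactive X chromosome in some women, averaged 832 ± 370.1 CPM in female and 682 ± 297 CPM in male cells on plastic (SD, n = 4 each). On gel it averaged 864 ± 453 CPM in female and 758 ± 465 CPM in male cells. Its log2 difference, 0.29 on plastic (-0.62 to 1.19) and 0.19 on gel (-0.72 to 1.10), was within the spread of replicates, and the intervals do not leave out a 2-fold excess in female cells on either surface.

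No tested member was called for a difference between the surface changes of the sexes. Female minus male was 0.01 for MMP2 (95% interval -0.47 to 0.49), 0.00 for MMP14 (-0.28 to 0.29) and -0.11 for MMP19 (-0.54 to 0.31). For MMP1 (-2.19 to 2.16) and MMP3 (-5.42 to 2.80) the intervals were several log2 units wide. Over all tested genes the edgeR test of this difference called 0 (0% of genes), with 633 genes (4.36%) at an unadjusted p under 0.05, none of them a member.

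The members differed widely in how much replicates varied. Within groups, the coefficient of variation was 3.75 to 10.4% for MMP14, 8.82 to 16.8% for TIMP2 and 7.76 to 21.3% for MMP19. It was 21.3 to 32.7% for TIMP3, 43.5 to 61.4% for TIMP1 and 65.8 to 98.0% for MMP1. The replicates behind the spread of MMP1, MMP3 and TIMP1 were female 1, female 4 and male 4, which also had the highest sums of the 20 endothelial markers within their groups. That sum was 960.0 CPM in female plastic 1, 717 CPM in female plastic 4 and 625 CPM in male plastic 4, against 378 to 497 CPM in the other plastic libraries. On gel it was 534 CPM in female gel 1, 576 CPM in female gel 4 and 574 CPM in male gel 4, against 342 to 398 CPM in the other gel libraries. By group it ran over 388 to 960.0 CPM in female plastic, 354 to 576 in female gel, 378 to 625 in male plastic and 342 to 574 in male gel. ENG and ERG had the highest means of the list in every group, and the sum rests largely on them. Over the groups ENG averaged 153 to 182 CPM and ERG 110 to 182 CPM. Of that list 19 of 20 genes passed the filter. On plastic 4 rose and 0 fell in female cells, where 12.7% of all tested genes were called higher. In male cells 3 rose and 0 fell, where 12.9% of all tested genes were called higher. The part of endothelial RNA in the levels of MMP1, MMP3, TIMP1 and TIMP3 was not tested. A fit without these 3 replicates on both surfaces, chosen after the data were seen, left 2 female replicates. The libraries kept also held endothelial markers, so this fit does not test the part of endothelial RNA. In it 3 members still fell on plastic in both sexes. The change was -0.85 in female and -0.79 in male cells for MMP2, -0.48 and -0.39 for MMP14, and -1.17 and -1.01 for MMP19. MMP1 then had -1.74 in female and -1.34 in male cells and was not called.

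**Figure D4:**
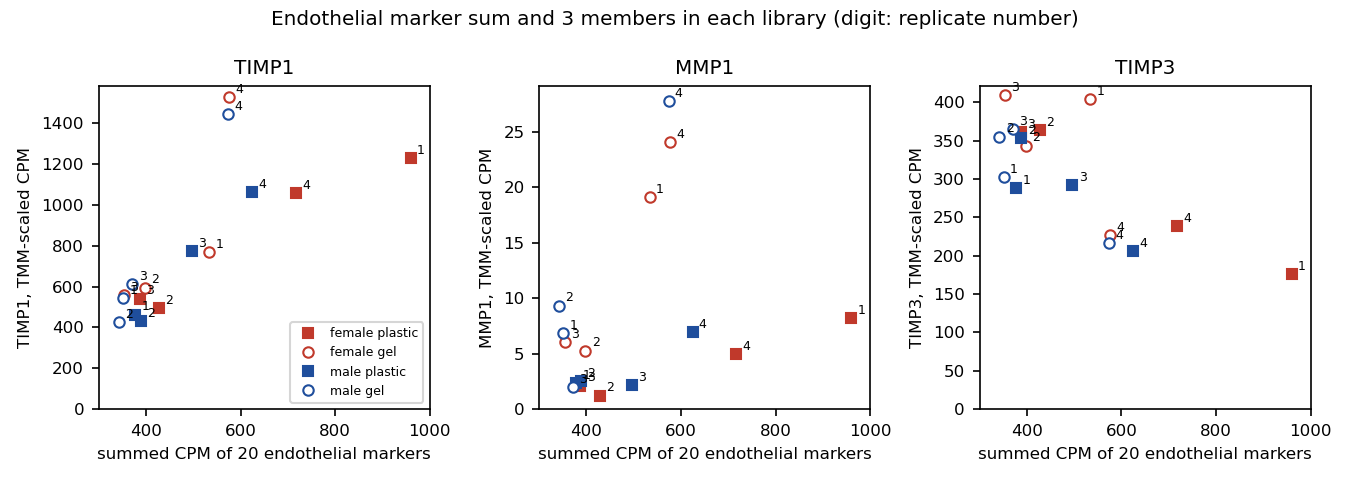
TMM-scaled CPM of TIMP1, MMP1 and TIMP3 (y axes) against the summed CPM of 20 endothelial markers (x axis, from 300) in the 16 libraries, with the replicate number beside each point. Female 1, female 4 and male 4 lie to the right; TIMP1 is at least 1059.8 CPM in 5 of those 6 libraries, and MMP1 is above 19 CPM in their 3 gel libraries.

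The other matrix metalloproteinases and TIMP4 form a list of 18 symbols, of which 15 are in the table and 8 were tested. Of these, 2 rose and 1 fell in female cells and 3 rose and 0 fell in male cells, with a median change of 0.51 in female and 0.61 in male cells. MMP17, a metalloproteinase held to the membrane by a lipid anchor, had the largest change of the tested metalloproteinases. It had 9.15, 10.6, 10.1 and 17.8 CPM in female cells on plastic, against 0.505, 0.866, 0.781 and 1.38 CPM on gel. Male cells had 13.2, 9.23, 10.8 and 13.2 CPM on plastic, against 1.47, 0.508, 0.373 and 0.673 CPM on gel. The groups lay far apart, and MMP17 rose 13.4-fold in female and 14.9-fold in male cells, log2 changes of 3.75 in female and 3.89 in male cells (SE 0.37 and 0.38, adjusted p = 2.62e-06 and 2.09e-06). MMP15, another membrane metalloproteinase, rose by 0.63 (SE 0.17, adjusted p = 0.0123) in female and 0.74 (SE 0.17, adjusted p = 0.00419) in male cells, with overlap in female cells. Without the 6 libraries of female 1, female 4 and male 4 the female change of MMP15 was not called (adjusted p = 0.166). The lipid-anchored MMP25 rose by 2.01 (SE 0.58, adjusted p = 0.0177) in male cells, with adjusted p = 0.0592 without those 6 libraries. MMP25 was scarce, averaging 1.60 CPM on plastic and 0.377 CPM on gel in male cells, with 0 CPM in the lowest gel library. The female change of MMP25, 1.26 (SE 0.57, adjusted p = 0.122), passed the test only without male gel 2 (adjusted p = 0.0331) among the fits that left out 1 library.

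MMP11 (stromelysin-3) fell in female cells, with 17.5 ± 3.94 CPM on plastic and 34.0 ± 5.03 CPM on gel (SD, n = 4 each), a change of -0.95 (SE 0.22, adjusted p = 0.00476) that was not called without the 6 libraries of female 1, female 4 and male 4 (-0.67, adjusted p = 0.202). In male cells the change of MMP11, -0.44 (SE 0.22, adjusted p = 0.158), was not called. Male gel 2 stood at 15.6 CPM, against 33.8 to 36.2 CPM in the other male gel libraries, and without it the change was -0.65 (adjusted p = 0.00727). The same library had 26.0 CPM of MMP23B, against 74.9 to 82.3 CPM in the others. MMP28 (epilysin) averaged 2.55 CPM in female cells on plastic and 1.22 CPM on gel, and 3.88 CPM in male cells on plastic and 1.06 CPM on gel. The adjusted p was 0.297 in female and 0.0644 in male cells, and with the replicate number as a block 0.0129 in female and 0.00108 in male cells. In male cells it was also called by DESeq2 (adjusted p = 0.022), in a fit of male libraries only (0.0339) and without male plastic 4 (0.0381). MMP16 and MMP24 were not called in either sex, MMP16 in male cells being called with the block (-0.45, adjusted p = 0.0228). The remaining genes of the chromosome 9 cluster were near 0: MMP7, MMP20, MMP27, MMP8, MMP12 and MMP13 had 4, 2, 0, 0, 3 and 13 reads over all 16 libraries.

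Genes around the protease system were described by lists. Beside the counts of every list, the share of all tested genes called was 23.9% in female and 25.8% in male cells. Of 20 tested activators, receptors and other regulators (22 listed), 4 rose and 4 fell in female cells and 4 rose and 3 fell in male cells, with medians of -0.12 in female and 0.09 in male cells. THBS1 (thrombospondin-1) rose by 1.05 (SE 0.17, adjusted p = 0.000243) in female and 0.90 (SE 0.17, adjusted p = 0.000826) in male cells, and SERPINE2, an inhibitor of serine proteases, changed by -0.80 in female and -0.84 in male cells (SE 0.20 and 0.20, adjusted p = 0.00859 and 0.00586). Of the regulators not called, 3 are given here that were picked after their values were seen: the membrane-anchored MMP inhibitor RECK with -0.15 in female and -0.09 in male cells, the urokinase gene PLAU with -0.15 and 0.04, and FURIN, which cuts the MMP14 precursor, with -0.11 and 0.13.

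All 11 listed ADAM and ADAMTS proteases were tested. Of these, 5 rose and 3 fell in female cells and 4 rose and 3 fell in male cells. Whether TIMP3 blocks each of them was not tested. ADAM19 rose by 1.54 in female and 1.65 in male cells (SE 0.19 and 0.19, adjusted p = 2e-05 and 1.03e-05), and ADAM12 rose by 0.84 in female and 0.70 in male cells (SE 0.11 and 0.11, adjusted p = 4.71e-05 and 0.000213). ADAM17, the enzyme that releases TNF from the membrane, changed by -0.66 in female and -0.85 in male cells (SE 0.11 and 0.11, adjusted p = 0.00044 and 4.33e-05). ADAMTS4, which cuts aggrecan and versican, changed by -1.58 in female and -1.39 in male cells (SE 0.33 and 0.33, adjusted p = 0.00194 and 0.00476).

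The list of cytokines that induce metalloproteinases, with their receptors, also held the enzyme gene PTGS2 and TGFB1, TGFB2 and TGFB3. Its counts and medians are therefore not those of inducers alone. IL1B and TNF were too scarce to be tested, and IL1RN had no entry. Of the 17 listed genes, 14 were tested. Of these, 2 rose and 9 fell in female cells and 2 rose and 8 fell in male cells, with medians of -0.59 in female and -0.90 in male cells. IL1A (interleukin-1 alpha, an inducer of MMP1 and MMP3 in fibroblasts) averaged 2.60 CPM on plastic and 21.3 CPM on gel in female cells and 2.73 CPM on plastic and 18.7 CPM on gel in male cells. IL1A fell by 3.03 (SE 0.43, adjusted p = 9.3e-05) on the log2 scale in female cells and by 2.77 (SE 0.43, adjusted p = 0.00018) in male cells. CXCL8 (interleukin-8), a neutrophil attractant, had the lowest change in the list, -4.28 in female and -4.99 in male cells (SE 0.54 and 0.56, adjusted p = 2.74e-05 and 9.4e-06). The receptor IL1R1 changed by -1.04 (SE 0.16, adjusted p = 0.000145) in female and -1.3 (SE 0.16, adjusted p = 1.94e-05) in male cells. The genes that rose were TGFB2, by 2.04 in female and 1.75 in male cells (SE 0.19 and 0.19, adjusted p = 1.77e-06 and 6.67e-06), and TGFB3, by 2.40 in female and 2.60 in male cells (SE 0.24 and 0.25, adjusted p = 3.66e-06 and 1.8e-06). Both encode growth factors known to raise TIMP and collagen expression in fibroblasts.

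Transcription factors known from metalloproteinase promoters (21 listed, all tested) moved both ways, and 4 rose and 7 fell in female cells and 5 rose and 7 fell in male cells. CEBPD, an acute-phase factor, changed by -2.54 in female and -2.40 in male cells (SE 0.14 and 0.14, adjusted p = 6.34e-09 and 1.13e-08). The NF-kB genes NFKB1 and RELB fell, with changes of -0.80 in female and -0.86 in male cells (SE 0.11 and 0.11, adjusted p = 8.74e-05 and 4.5e-05) for NFKB1 and of -1.2 in female and -0.96 in male cells (SE 0.16 and 0.16, adjusted p = 5.26e-05 and 0.000376) for RELB. The stress-induced factor ATF3 rose by 1.45 in female and 1.56 in male cells (SE 0.21 and 0.22, adjusted p = 0.00012 and 5.79e-05) and the AP-1 gene JUN by 0.43 in female and 0.43 in male cells (SE 0.09 and 0.09, adjusted p = 0.0015 and 0.00147). Other genes of these families, chosen after their values were seen, differed: RELA was not called (0.03 in female and 0.16 in male cells), and the AP-1 genes FOS and FOSB fell. FOS changed by -1.44 in female and -1.0 in male cells (SE 0.32 and 0.32, adjusted p = 0.00339 and 0.0288) and FOSB by -1.70 in female and -2.21 in male cells (SE 0.41 and 0.43, adjusted p = 0.00623 and 0.00123).

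Of 24 tested matrix substrates (26 listed), 13 rose and 4 fell in female cells and 13 rose and 5 fell in male cells, with medians of 0.40 in female and 0.42 in male cells. COL4A1, a basement membrane collagen, rose by 1.49 in female and 1.5 in male cells (SE 0.13 and 0.13, adjusted p = 1.24e-06 and 1.04e-06). The proteoglycans VCAN (versican) and DCN (decorin) fell. VCAN changed by -1.51 in female and -1.83 in male cells (SE 0.24 and 0.24, adjusted p = 0.00024 and 4.22e-05) and DCN by -1.41 in female and -1.33 in male cells (SE 0.21 and 0.21, adjusted p = 0.000153 and 0.000253).

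**Figure D5:**
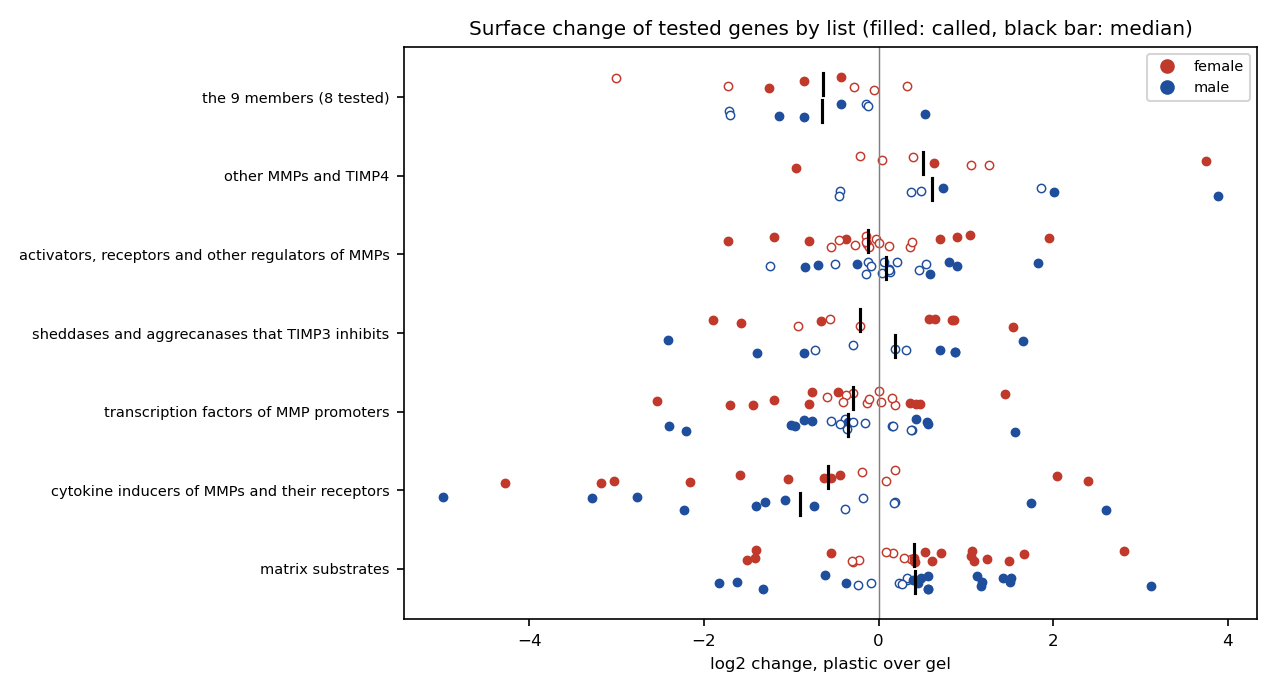
Log2 change of plastic over gel (x axis) of every tested gene among the 9 members and in the 6 lists around them (y axis), female above male, filled where called, with a black bar at each median. The list named there for TIMP3 holds 11 ADAM and ADAMTS proteases, and whether TIMP3 blocks each was not tested. The members lie mostly below 0 (median -0.64 in both sexes, counting MMP3, which passed the filter mostly through gel libraries). The other metalloproteinases are led by MMP17 at 3.75 in female and 3.89 in male cells. The cytokine list has medians of -0.59 in female and -0.90 in male cells.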

How the data were processed

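The deposited table holds raw gene counts of 16 polyA RNA libraries. Per the labels' protocols, RNeasy Micro kits gave the RNA and a KAPA mRNA kit the libraries. Per the submitters' processing notes, the authors used FastQC 0.11.5, Trimmomatic 0.36, HISAT2 2.1.0, SAMtools 1.3.1, featureCounts and build Sscrofa11.1. The strand setting is not given in the sources used here, so how reads of overlapping genes were assigned is not known. Of 29576 table entries, 24 without a gene name (0.169% of counts) were left out. The members' symbols matched RefSeq entries of Sscrofa11.1, from which positions were taken.

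Counts were filtered with filterByExpr, scaled by TMM (factors 0.896 to 1.124) and tested with edgeR 4.0.16 (R 4.3.3). The fit estimated 4 group means from the 16 libraries, leaving 12 residual degrees of freedom. SE is the log2 change over the root of F, and intervals are 95%. The scripts were tested on simulated data. Ratios were tested with SciPy 1.17.1, and figures drawn with matplotlib 3.10.9. Alternatives were RLE factors, DESeq2 1.42.0, limma-voom (limma 3.58.1), other filters, fits of the 8 libraries compared, the replicate block, and leaving out each library.

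The members and lists were chosen with earlier results of these data known. Named were all members, up to 3 called genes per direction, sex and list by adjusted p, markers over 5 CPM in any group, and the 3 genes most like each member. The text describes part of these, 1 gene named by the rule is not reported here, and genes outside the rule (VWF, PTPRC, CD163, MPO, SYN1 and uncalled metalloproteinases among them) were chosen after their values were seen. Deviations of log2 CPM (prior count 2) from group means correlated by 0.13 to 0.49 between gel and plastic libraries of the same sex and number, and all 16 libraries correlated best with their own number. The numbers were therefore taken as pairs, on this evidence from the data and not the labels. A first check on the log2(CPM + 2) scale gave 0.092 for 1 pair, under the limit of 0.1 used for pairing, with 12 of 16 libraries correlating best with their own number. The edgeR scale was adopted after that value was seen, so blocked results depend on this choice. No 2 libraries of a group were copies (chi-square per degree of freedom 9.9 to 81.9 over 24 pairs). P-values measure the spread between these replicates only.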

Additional observations from a re-analysis of the deposited data

Results flagged for a closer look

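One of 36 group values stood out by Dixon's gap test, where chance gives about 1 in 20. MMP1 in male plastic 4 was at 6.93 CPM, and its gap to the next male plastic library, at 2.54 CPM, was 0.924 of the range of the group, above the limit of 0.829 for 4 samples. Male 4 was also the highest male replicate on gel, at 27.8 CPM.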

How the results depend on the processing

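All 7 calls of members (MMP2, MMP14 and MMP19 lower in both sexes, TIMP2 higher in male cells) kept their direction and their call under every alternative run, with adjusted p up to 0.0258. Leaving out each library gave 3 to 4 called members in female and 4 to 5 in male cells. With the replicate block, which called 27.6% of all tested genes in female and 29.7% in male cells, 6 members were called in female and 5 in male cells, and the block changed no other call of a member than those given for MMP1, MMP3 and TIMP2. For sex differences the block could be fitted only as a random effect (limma-voom, consensus correlation 0.19) and called 0 members. Over all genes, plastic against gel gave 3476 calls in female cells (2780 to 4444 without single libraries) and 3748 in male cells (2859 to 3961). Without the 6 libraries of female 1, female 4 and male 4 (chosen after seeing the data), the female count was 1968 (1185 higher, 783 lower), with 2 female replicates left. As pairs, the 5 ratios without overlap, MMP1 to TIMP1 in male cells and MMP3 to TIMP1 in female cells each gave p = 0.125 by an exact sign-flip test, the smallest 4 pairs allow. Of 70 called changes of other genes under the naming rule, 8 lost their call under some alternative. Depth limits MMP3 (0 to 72 reads a library) and MMP9 (0 to 5).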

Other observations

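For each tested member, the 3 genes with a mean of at least 5 CPM that followed it most closely were taken by Pearson correlation of log2 CPM deviations from the 4 group means, over 16 libraries. The libraries share replicates, and female 1, female 4 and male 4 stand apart in many genes, so these are descriptions and carry no p-value. The 3 genes are the highest of at least 9603 compared, so high values are in part due to this choice. For TIMP1 they were CDH5 (0.97), EDN1 (0.95) and ADPGK (0.95). By Spearman rank correlation CDH5 and ADPGK had 0.96 each and EDN1 only 0.77. CDH5 is VE-cadherin and EDN1 encodes endothelin-1, a peptide made chiefly by endothelium. CDH5 had 174 CPM in female plastic 1, 88.8 CPM in female plastic 4 and 87.9 CPM in male plastic 4. On gel it had 20.3 CPM in female gel 1, 47.1 CPM in female gel 4 and 44.8 CPM in male gel 4. The correlation does not cover differences between surfaces. CDH5 averaged 79.7 CPM on plastic and 20.9 CPM on gel in female cells, and 43.7 and 17.1 CPM in male cells. TIMP1 averaged 832 CPM on plastic and 864 CPM on gel in female cells, and 682 and 758 CPM in male cells. For MMP19 they were MCM3 (0.93), MCM4 (0.91) and MCM2 (0.91), subunits of the helicase that opens DNA for replication. For MMP1 they were ZC3H12C (0.95), TBX3 (0.94) and PNP (0.94), and for MMP3 DPYD (0.94), SLC38A2 (0.91) and LYN (0.91). The values for MMP3 rest on 0 to 72 reads a library, most of them in female gel 1, female gel 4 and male gel 4. For MMP2 they were CORO2B (0.95), EPHB3 (0.94) and AEBP1 (0.92), for MMP14 ANTXR2 (0.89), ST8SIA4 (0.88) and KLF3 (0.86), for TIMP2 NYNRIN (0.95), PBXIP1 (0.94) and DPYSL3 (0.94) and for TIMP3 SVIL (0.94), C6H19orf33 (0.92) and EZH1 (0.91).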
